A study of Mus musculus with 57 samples.

Results

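The measurements below concern 9 long noncoding RNAs (lncRNAs) of the mouse that carry small nucleolar RNAs (snoRNAs) within their genes: Gas5, Snhg1, Snhg3, Snhg5, Snhg6, Snhg8, Snhg12, Snhg15 and Zfas1. They were taken by name, each as the row of the deposited expression table whose Ensembl identifier maps to that symbol, and all 9 were found among 59119 rows. Total RNA from mouse oocytes and preimplantation embryos had been sequenced with reads of 150 bases, giving 43 columns of values for 57 labelled samples in 18 groups. The developmental series (C57BL/6, wild type) holds MII oocytes, zygotes, E2-cell and L2-cell embryos (read here as early and late 2-cell), 4-cell and 8-cell embryos, morulae and blastocysts, with 2 columns each and 150 to 200 pooled embryos per sample. A time series of wild-type BDF1 embryos covers 14, 17 and 20 hours after fertilization, with 2 columns each. In a knockdown, BDF1 embryos received an antisense oligonucleotide (ASO) against the lncRNA LncR-3363, diluted to 20 uM, and were compared with a control (4 columns each, labelled KD-1cell and Ctrl), beside a single KD-2cell sample. In a CRISPR experiment, BDF1 embryos labelled MT2Mm KO, made with guide RNA (150 ng per uL) and Cas9 mRNA (100 ng per uL), were compared with wild-type controls at Late1c and Early2c (read as late 1-cell and early 2-cell), with 3 columns in each of 4 groups. MT2Mm is the long terminal repeat that serves as promoter of the endogenous retrovirus MERVL. Injection was into MII oocytes, 5 to 10 pL each, and the sources used here do not say whether the controls were injected. An age of 6 to 8 weeks is given for the animals of the MT2Mm experiment, and none for the others.

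A snoRNA host gene is transcribed by RNA polymerase II, spliced, and its introns are trimmed to snoRNAs, which guide chemical modification or cleavage of ribosomal RNA. Box C/D snoRNAs direct methylation of the ribose and H/ACA snoRNAs direct conversion of uridine to pseudouridine. The spliced exons of the noncoding hosts have no large reading frame, and many are short-lived where translation is active, because nonsense-mediated decay removes them. The full-grown oocyte resumes meiosis with transcription silent and with stored RNA, and the embryo begins its own transcription between the 1-cell and 2-cell stages, when nucleoli and ribosome synthesis are rebuilt.

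The authors deposited FPKM, in which fragment counts are divided by transcript length and by the size of the library, and the read depth behind them is unknown. Changes are differences of log2(FPKM + 0.5), which understate the change of low genes, and a change was called at a limma p below 0.05 after Benjamini-Hochberg adjustment over all rows tested. P-values measure only the spread between these samples, since nothing says that they came from separate collections. Between 10704 and 12892 rows reached 1 FPKM in a library. Small and ribosomal RNAs held 15.3% to 68.8% of a library's summed FPKM, most in the L2-cell columns (59.2% and 68.8%) and 22.1% and 22.8% in the 4-cell columns. Marker genes followed the stage labels: 5 oocyte genes summed to at least 2243 FPKM in every MII and zygote library and to at most 5.97 in blastocysts, and 5 blastocyst genes to at least 1490 in blastocysts. Of 9 cumulus and granulosa markers 1 reached 1 FPKM in MII oocytes, with a sum of 7.01 in both libraries, and of 6 sperm and testis genes 1 did so. The columns of zygote replicates 1 and 2 stood apart from each other: without replicate 2, 5078 rows differed between zygote and MII, against 740 with both.

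The 9 genes were placed on GRCm38 by the GENCODE M21 annotation and hold 33 annotated snoRNA genes on their own strand. Gas5 (ENSMUSG00000053332), first found as a transcript that builds up in growth-arrested cells, spans chr1:161034422-161038539 on the plus strand and holds 10 of them. Snhg1 (ENSMUSG00000108414), the host of Snord22, spans chr19:8723475-8726443 on the plus strand and holds 8. Snhg12 (ENSMUSG00000086290), at chr4:132308623-132311024 on the plus strand, holds 5, and Zfas1 (ENSMUSG00000074578), at chr2:167062934-167065862 on the plus strand, holds 3 of the Snord12 kind. Snhg3 (ENSMUSG00000085241), the host of the Snora73 (U17) RNAs that take part in cleaving the ribosomal precursor, lies at chr4:132348014-132353686 on the minus strand and holds 2. Snhg5 (ENSMUSG00000097195), the host of the Snord50 pair, lies at chr9:88521050-88522929 on the minus strand and holds 2. Snhg6 (ENSMUSG00000098234, chr1:9941959-9944118, minus strand), Snhg8 (ENSMUSG00000104960, chr3:123507552-123508404, minus strand) and Snhg15 (ENSMUSG00000085156, chr11:6525591-6528760, minus strand) hold 1 each: Snord87, Snora24 and Snora9. Only Snord87 and Snora73b lie wholly in introns of every annotated transcript, and the other 31 overlap exons of some transcript. Reads could be shared between a host and those 31, and likewise between Snhg3 and Rcc1, which have 135 of Snhg3's 986 exon bases in common on 1 strand. On the other strand Gm17300 covers 705 of those 986 bases (71.5%), and Mcmdc2 covers 127 exon bases of Snhg6.

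The starts of the genes are shown because 5 of the 9 available windows have a TATA-like element upstream of the start. The RefSeq promoter table (GRCm38.p6) holds 8 of the 9 genes, with 2 windows for Gas5 and none for Snhg6. Below are 50 bases before and 50 bases from the start for the 5 windows with such an element, each read 5′ to 3′ on the gene's strand. In capitals are first the element and then a run of C and T near the start. The windows are chr1:161035116-161035215 for Gas5, chr19:8723437-8723536 for Snhg1, chr9:88522848-88522947 for Snhg5, chr3:123508287-123508386 for Snhg8 and chr4:132308628-132308727 for Snhg12.
Gas5: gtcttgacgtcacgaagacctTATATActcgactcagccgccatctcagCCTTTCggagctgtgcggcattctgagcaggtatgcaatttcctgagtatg
Snhg1: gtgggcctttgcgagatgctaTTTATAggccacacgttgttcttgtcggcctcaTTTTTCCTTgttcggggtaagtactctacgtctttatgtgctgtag
Snhg5: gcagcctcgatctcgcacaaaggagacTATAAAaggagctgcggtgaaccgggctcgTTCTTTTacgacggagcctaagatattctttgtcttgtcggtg
Snhg8: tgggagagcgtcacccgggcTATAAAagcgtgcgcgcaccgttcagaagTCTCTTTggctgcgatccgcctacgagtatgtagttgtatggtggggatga
Snhg12: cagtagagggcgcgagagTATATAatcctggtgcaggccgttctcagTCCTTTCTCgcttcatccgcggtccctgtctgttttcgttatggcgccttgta
The other 3 genes, shown for contrast, have no match there: Snhg3 (chr4:132353637-132353736), Snhg15 (chr11:6528711-6528810) and Zfas1 (chr2:167062884-167062983). The upstream window of Gas5 has none either.
Snhg3: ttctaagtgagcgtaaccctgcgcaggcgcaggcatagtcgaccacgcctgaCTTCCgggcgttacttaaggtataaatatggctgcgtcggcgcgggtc
Snhg15: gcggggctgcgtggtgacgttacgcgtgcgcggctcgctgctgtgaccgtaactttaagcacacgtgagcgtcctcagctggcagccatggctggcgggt
Zfas1: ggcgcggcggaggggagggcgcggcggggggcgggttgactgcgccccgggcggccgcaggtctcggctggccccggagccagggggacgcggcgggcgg
The search took TATAAA and TATATA on both strands (TTTATA is the first read on the other strand), lying wholly within bases -35 to -15, with the start base as 1 and the base before it as -1. A match began at -29 in Gas5 and Snhg1, at -30 in Snhg8, at -32 in Snhg12 and at -23 in Snhg5. Such a match is present in 2.92% of all 32851 windows. A run of at least 5 C or T covering a base from -3 to 10 is present in 6 of the 9 windows and in 34.9% of all windows. Both features occur in 5 of the 9 windows and in 1.16% of all windows. The marked run began at -1 in Gas5 and Snhg8 and at -3 in Snhg12, and covered the start base in these. It began after the start base in Snhg3 (at 3), Snhg1 (at 5) and Snhg5 (at 8). A run of pyrimidines at the start is the feature by which terminal oligopyrimidine RNAs, ribosomal protein mRNAs among them, are known. These patterns were chosen after the sequences were seen, so the shares are a description, and a match is no evidence of a working site.

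Across the 8 stages, 8 of the 9 lncRNAs had their lowest stage mean in MII oocytes or zygotes, and all 9 had higher means from the 4-cell stage on than in zygotes. Snhg6 was lowest at E2-cell, with 8.73 and 10.4 FPKM in MII oocytes, above the 0.0472 to 2.25 FPKM of the other 8. The highest stage mean fell at the 8-cell stage for Gas5, Snhg5 and Snhg15, in morulae for Snhg1, Snhg6, Snhg12 and Zfas1, in blastocysts for Snhg8 and at the L2-cell stage for Snhg3. Snhg1 had the highest level per length of the 9 in morulae, 61.7 ± 0.27 FPKM (SD, n = 2), and Snhg8 the lowest, 12.7 ± 0.76.

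**Figure D1:**
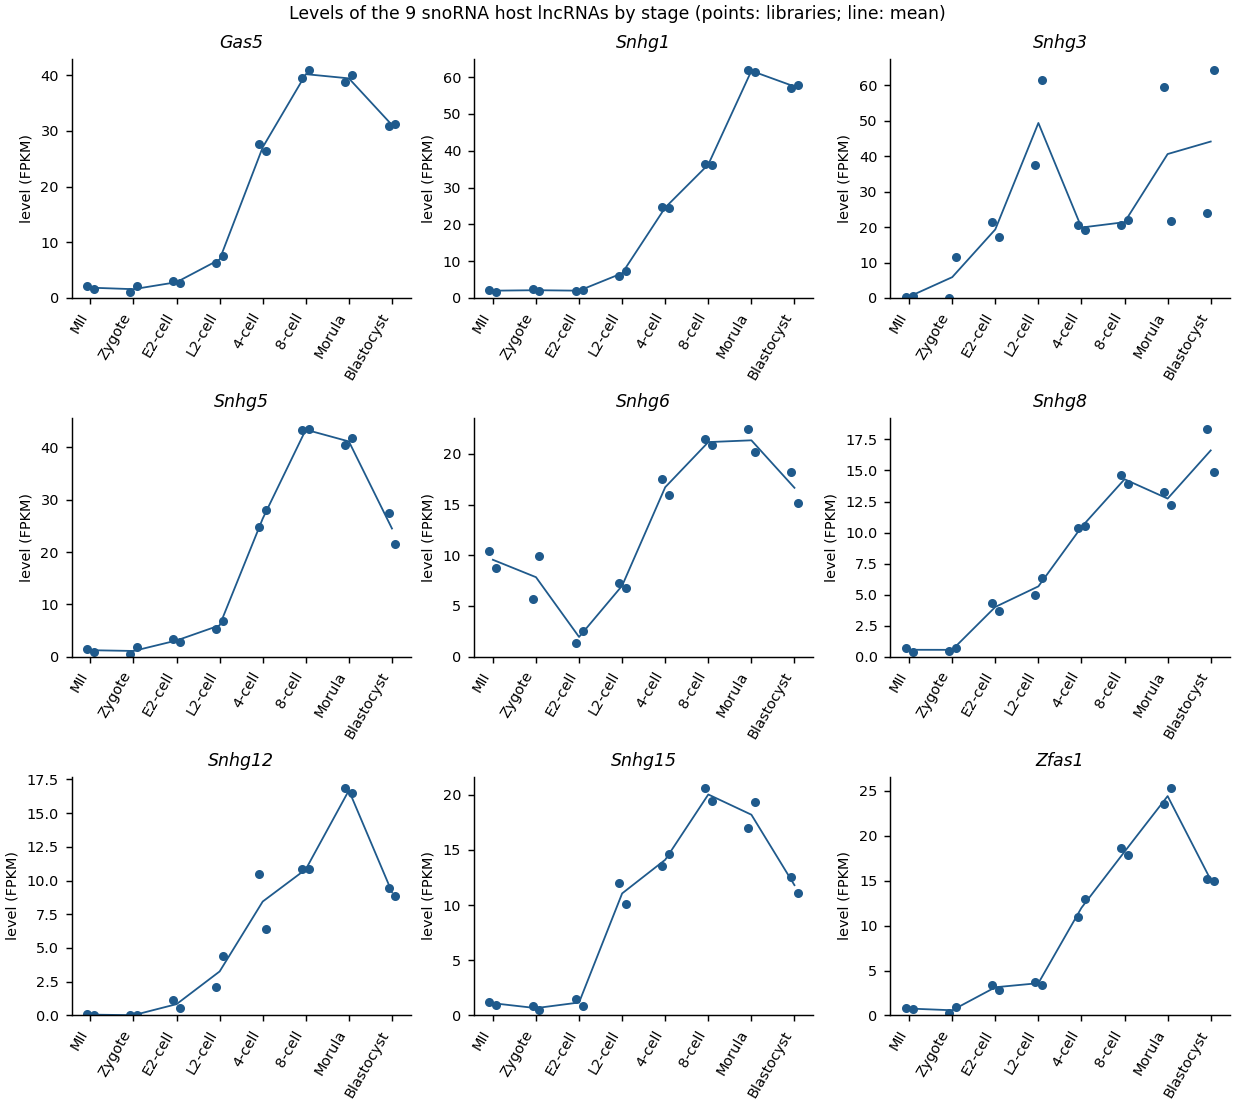
Level of each lncRNA in FPKM (vertical axes, linear, separate scales) at 8 stages of development (horizontal axes), with 1 point per library, 2 libraries per stage, and lines through the stage means. Gas5, Snhg1 and Snhg5 leave the low range after the E2-cell stage, Snhg6 starts high and dips at E2-cell, and the points of Snhg3 lie far apart in morulae and blastocysts.

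Gas5 had 2.12 and 1.59 FPKM in MII oocytes, 1.06 and 2.10 in zygotes, 2.99 and 2.68 in E2-cell embryos, 6.33 and 7.49 in L2-cell embryos, 27.7 and 26.4 in 4-cell embryos, 39.4 and 40.9 in 8-cell embryos, 38.7 and 40.1 in morulae and 30.9 and 31.2 in blastocysts. The libraries of neighbouring stages did not overlap from the zygote to the 8-cell stage. Gas5 rose by 0.73 at E2-cell (SE 0.20, adjusted p = 0.0132), by 1.15 at L2-cell (adjusted p = 0.000391) and by 1.90 at 4-cell (adjusted p = 1.69e-05). The first of these calls was lost without zygote replicate 1 (adjusted p = 0.0676) or E2-cell replicate 1 (adjusted p = 0.0730). Snhg5, which hosts the Snord50 pair that guides ribose methylation, followed Gas5 more closely than any other pair of the 9, with r = 0.995 over 8 stage means of the log values. It had 1.51 and 0.970 FPKM in MII oocytes, 3.33 and 2.87 at E2-cell, 24.8 and 28.0 at 4-cell, 43.3 and 43.5 at 8-cell and 27.4 and 21.6 in blastocysts. It rose by 1.31 at E2-cell (adjusted p = 0.00738) and by 2.06 at 4-cell (adjusted p = 0.000292). Its rise of 0.84 at L2-cell (adjusted p = 0.0395) lost its call without any 1 of the 4 libraries (adjusted p from 0.0542 to 0.186).

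Snhg12, the host of 3 kinds of H/ACA snoRNA and of Snord99, was the nearest to absent at the start. Its MII libraries had 0.0728 and 0.0472 FPKM, and zygote replicate 1 is listed at 0. It had 1.14 and 0.527 FPKM at E2-cell, 2.12 and 4.40 at L2-cell, 10.5 and 6.40 at 4-cell, 10.8 in both 8-cell libraries, 16.9 and 16.5 in morulae and 9.44 and 8.84 in blastocysts. It rose by 1.33 at E2-cell (SE 0.30, adjusted p = 0.00397), 1.46 at L2-cell (adjusted p = 0.00108) and 1.28 at 4-cell (adjusted p = 0.00366). In fits of each pair of stages alone these calls were lost, with adjusted p of 0.0676, 0.0629 and 0.0983. Snhg8, the host of Snora24, had an early step: from 0.436 and 0.669 FPKM in zygotes to 4.34 and 3.68 at E2-cell, a rise of 2.10 (SE 0.19, adjusted p = 4.87e-06). It rose again at 4-cell, to 10.4 and 10.5 FPKM (0.84, adjusted p = 0.00281), and ended at 18.3 and 14.9 in blastocysts. Zfas1 also had its first rise at E2-cell, from 0.237 and 0.912 to 3.44 and 2.84 FPKM (1.83, SE 0.24, adjusted p = 8.99e-05). It changed little at L2-cell (3.74 and 3.44 FPKM, log2 change 0.17, adjusted p = 0.540) and rose at 4-cell to 11.0 and 13.0 FPKM (1.61, adjusted p = 0.000167).

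Snhg1 and Snhg15 had their first called rise at L2-cell. Snhg1 was at 1.71 to 2.43 FPKM in the 6 libraries of MII, zygote and E2-cell, with overlapping groups, and its change at E2-cell was -0.07 (SE 0.15, adjusted p = 0.784). It reached 6.08 and 7.36 FPKM at L2-cell (a rise of 1.54, adjusted p = 3.87e-06), 24.8 and 24.3 at 4-cell (1.80, adjusted p = 2.95e-06), 36.3 and 36.2 at 8-cell and 61.9 and 61.5 in morulae. Its rise of 0.76 from 8-cell to morula (adjusted p = 0.00440) was the only call among the 9 at that step. Snhg15, the host of Snora9, had 0.479 to 0.848 FPKM in zygotes, 1.51 and 0.833 at E2-cell and 12.0 and 10.1 at L2-cell. Its change at E2-cell missed the threshold (adjusted p = 0.0668). It was called there after scaling by the median of ratios (adjusted p = 0.0499) and with replicate number as a block (adjusted p = 0.0478). The rise of 2.82 at L2-cell (SE 0.21, adjusted p = 3.83e-07) was the largest of the 9 at that step. The further change at 4-cell (13.6 and 14.6 FPKM) was 0.34 (adjusted p = 0.183).

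Snhg6 went the other way at E2-cell. It fell from 5.70 and 9.98 FPKM in zygotes to 1.38 and 2.52, a change of -1.76 (SE 0.25, adjusted p = 0.000194), then rose to 7.24 and 6.76 at L2-cell (1.65, adjusted p = 0.000128) and to 17.5 and 15.9 at 4-cell (1.20, adjusted p = 0.00195). The order of its stage means, from the lowest, was E2-cell, L2-cell, zygote, MII, blastocyst, 4-cell, 8-cell and morula. Libraries of L2-cell and zygote, of zygote and MII, of blastocyst and 4-cell, and of 8-cell and morula overlapped.

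Snhg3 could not be read as firmly, because its libraries disagreed. It had 0.0648 and 11.7 FPKM in zygotes, 59.5 and 21.8 in morulae and 24.1 and 64.2 in blastocysts, against 21.4 and 17.3 at E2-cell, 37.4 and 61.4 at L2-cell, 20.6 and 19.1 at 4-cell and 20.7 and 22.1 at 8-cell. Its rise of 2.91 at E2-cell (SE 1.07, adjusted p = 0.0472) lost its call without zygote replicate 1 (adjusted p = 0.428), E2-cell replicate 1 (adjusted p = 0.151) or E2-cell replicate 2 (adjusted p = 0.119). The libraries with little Snhg3 were those with much Snora73a, one of the snoRNAs inside it, in zygotes (95.6 and 14.7 FPKM), morulae (52.3 and 232) and blastocysts (269 and 53.3). Snora73a and Snora73b are 205 bases each and differ at 7 positions. Whether reads were assigned differently between host and snoRNA was not tested.

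Counted by step, limma called 0 of the 9 from MII to zygote (1 at an unadjusted p under 0.05), where 1.73% of 19692 rows were called higher and 2.03% lower. That count moved with the zygote libraries: without replicate 2, Gas5 (adjusted p = 0.0137), Snhg5 (0.0127) and Zfas1 (0.00277) were called lower, and without replicate 1, Snhg3 was called higher (0.0133). From zygote to E2-cell 6 rose and 1, Snhg6, fell, against 17.9% and 26.2% of rows. In a fit of those 2 stages alone only Snhg8 was called. Such fits called Snhg3 at the next 2 steps, higher at L2-cell (adjusted p = 0.0324) and lower at 4-cell (adjusted p = 0.0403). From E2-cell to L2-cell 6 rose and 0 fell (rows: 31.1% and 37.6%), and from L2-cell to 4-cell 7 rose and 0 fell (30.2% and 26.2%). The medians of the 9 at these 3 steps were 1.31, 1.29 and 1.28, beside -0.01, -0.10 and 0 over all rows. The column names change at the last 2 of these steps too. Both E2-cell columns share a tag, both L2-cell columns share another, and the 4-cell columns have the word merge. Stage and kind of column cannot be told apart at either of those steps. After that the changes were smaller: Snhg1 rose by 0.55 from 4-cell to 8-cell and no other was called (13.4% and 21.6%). That call was lost without any 1 of the 4 libraries (adjusted p from 0.0634 to 0.0755). From 8-cell to morula 1 rose and 0 fell (8.39% and 12.5%). From morula to blastocyst 0 rose and 3 fell (22.4% and 16.3%): Snhg12 (-0.83), Snhg15 (-0.60) and Zfas1 (-0.68), with adjusted p of 0.0468, 0.0382 and 0.0426. Each of the 3 calls was lost without any 1 of the 4 libraries (adjusted p from 0.0752 to 0.188). At this step 57.8% of all calls were higher, or 47.2% after scaling the columns by the median of ratios. In pooled embryos, fewer cells of a type and less RNA per cell cannot be told apart.

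The 9 did not all share a profile. Correlated with the mean profile of the other 8 over 8 stage means, Snhg12 gave r = 0.996, Gas5 0.991 and Snhg5 0.987, while Snhg3 gave 0.730 and Snhg6 0.655. These are descriptions over stages whose libraries are shared between genes. Among 7343 other tested rows with a mean of at least 5 FPKM, genes typed as snoRNA left out, the 5 most like the mean profile were Snord43 (r = 0.998; typed as miRNA in the annotation), Eif2a (0.998), Rps19 (0.997), Rab26os (0.995) and Mir295 (0.995). Eif2a encodes an initiation factor of translation and Rps19 a protein of the small ribosomal subunit, and Mir295 belongs to the microRNA cluster of early embryos and embryonic stem cells. Rps19 rose from 1.27 FPKM in MII oocytes to 117 FPKM at 8-cell, in stage means.

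The snoRNAs themselves were measured through rows for mature genes of 60 to 205 bases, which total RNA libraries read poorly. In 13 of the 33 rows no stage library reached 1 FPKM, and in 6 rows at least 1 stage had libraries over 10-fold apart with the higher at 5 FPKM or more. Where a gene is annotated in nested copies, 1 row can take the reads: of Snord80 in Gas5, the row of 77 bases had 35.0 and 34.0 FPKM at 4-cell and the row of 81 bases at most 0.324 in any library of the series. Snora73a, Snora73b and Snora24, not printed, reached 1 FPKM in 16, 16 and 14 of 16 stage libraries. The 4 sequences below are a choice from the box C/D snoRNAs that could be followed over the stages. They are from the GENCODE M21 transcripts, with the C box (TGATGA) and D box (CTGA) of the box C/D class in capitals. They lie at chr1:9942463-9942549 (Snord87 in Snhg6), chr1:161036057-161036139 (Gm22357 in Gas5), chr19:8724531-8724602 (Gm24452 in Snhg1) and chr2:167065276-167065365 (Snord12 in Zfas1).
Snord87: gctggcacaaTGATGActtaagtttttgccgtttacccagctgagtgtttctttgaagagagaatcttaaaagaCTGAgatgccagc
Gm22357: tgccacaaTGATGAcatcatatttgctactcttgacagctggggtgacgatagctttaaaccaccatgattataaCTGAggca
Gm24452: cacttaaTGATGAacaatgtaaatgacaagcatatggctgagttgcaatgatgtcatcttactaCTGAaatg
Snord12: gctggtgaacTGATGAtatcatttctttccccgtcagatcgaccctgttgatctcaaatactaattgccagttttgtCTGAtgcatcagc
Of the 33 rows 21 hold both boxes near their ends.

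Snord87, wholly intronic in Snhg6, was at or near 0 in oocytes and zygotes, where its host was not. It had 0.105 and 0 FPKM in MII oocytes and is listed at 0 in both zygote libraries, where Snhg6 had 5.70 and 9.98. At E2-cell, the step at which Snhg6 fell, Snord87 rose to 0.400 and 1.49 FPKM (1.42, SE 0.35, adjusted p = 0.00654). It rose further with its host at L2-cell (5.43 and 3.40, adjusted p = 0.000628) and 4-cell (7.95 and 10.8, adjusted p = 0.0270). Opposite directions were also called between Late1c and Early2c in the controls of the MT2Mm experiment: Snhg6 changed by -0.68 (adjusted p = 0.00449) and Snord87 by 1.18 (adjusted p = 0.000133). Levels differed between experiments, however. Snord87 had 19.8 to 24.7 FPKM and Snhg6 1.01 to 1.24 in the 3 Late1c control libraries, while Snord87 is listed at 0 in all 6 libraries of the 14 to 20 hour series, where Snhg6 had 4.99 to 6.18. Per the labels the libraries of the developmental stages were made with one kit, and another served small amounts of RNA, with its samples not named.

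Gm22357, a box C/D RNA in Gas5, rose with its host, from 2.15 and 1.04 FPKM in zygotes to 5.63 and 9.18 at E2-cell, 24.98 and 49.4 at L2-cell, 79.1 and 90.7 at 4-cell and 127 and 129 at 8-cell. It was called higher at the first 3 of these steps (adjusted p = 0.00320, 0.000637 and 0.0245). Gm24452 in Snhg1 rose already at E2-cell, from 0 and 0.285 to 3.73 and 3.39 FPKM (2.70, adjusted p = 1.31e-06), a step at which Snhg1 itself was not called. It reached 99.9 and 85.0 FPKM in morulae. Snord12 in Zfas1 peaked with its host in morulae, at 32.6 and 35.2 FPKM, and fell to 15.9 and 10.4 in blastocysts (-1.36, adjusted p = 0.00668). Snord22, the snoRNA after which Snhg1 was first named, ran against its host: 207 and 276 FPKM at L2-cell and 0.0114 and 0.0835 at 4-cell, where Snhg1 rose. Its change of -8.78 (SE 0.51, adjusted p = 2.90e-07) came at the same step as falls of Snora73b in Snhg3, from 299.8 and 499.6 to 37.0 and 37.3 FPKM (adjusted p = 5.30e-06), of Gm25894 in Snhg1 (-3.97, adjusted p = 2.16e-07) and of Snora9 in Snhg15 (-5.87, adjusted p = 0.00309). Of 20 snoRNA rows tested at that step 6 rose and 4 fell, beside 30.2% and 26.2% of all rows. The share of small and ribosomal RNAs in the libraries was lower at 4-cell than at L2-cell too, as given above, and its part in these values was not tested.

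**Figure D2:**
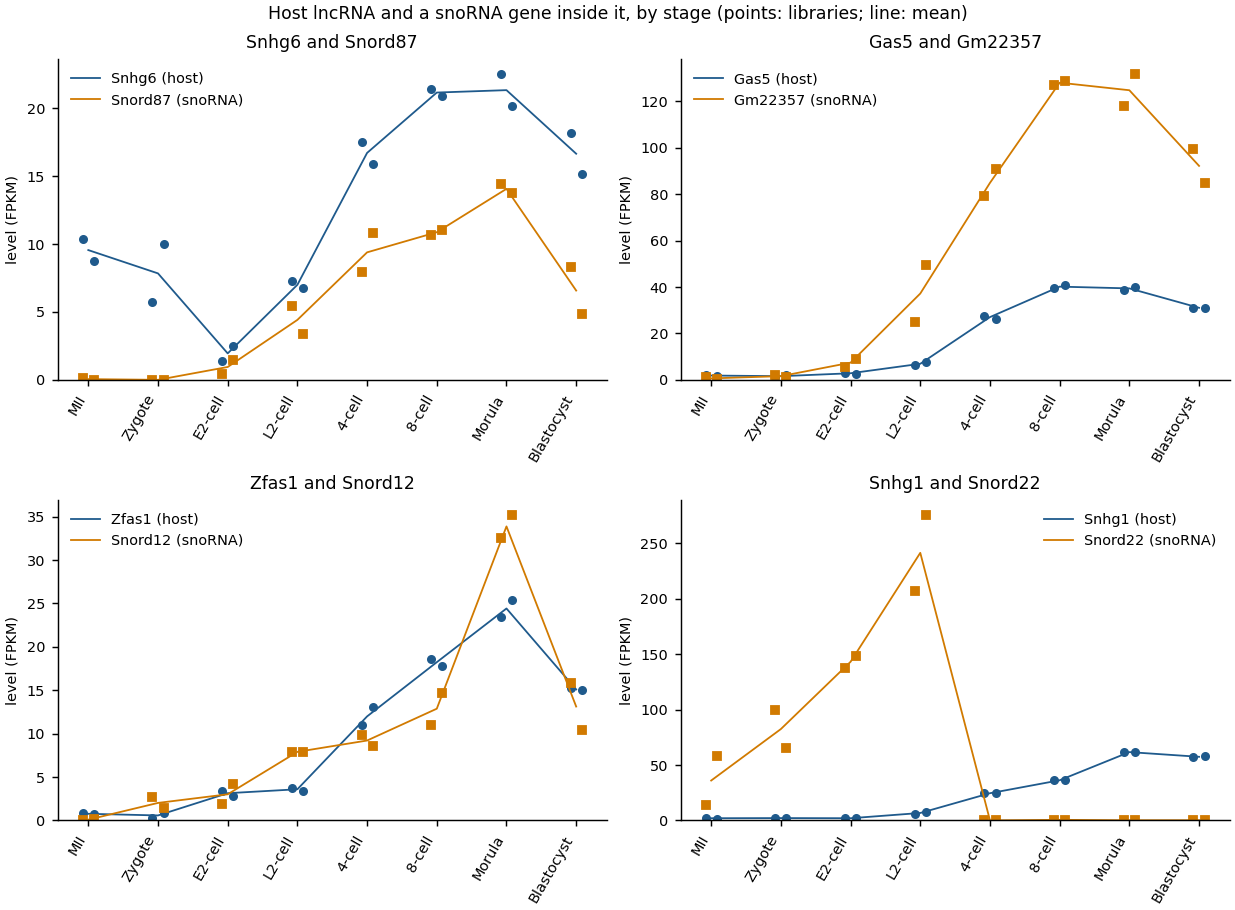
Level in FPKM (vertical axes, linear) at 8 stages (horizontal axes) of 4 host lncRNAs (blue circles) and a snoRNA gene inside each (orange squares), with 1 point per library and lines through the means of 2. Snord87 is at or near 0 in MII oocytes and zygotes, where Snhg6 is at 5.70 to 10.4 FPKM, Gm22357 and Snord12 follow Gas5 and Zfas1, and Snord22 is high to L2-cell and under 1 FPKM from 4-cell on while Snhg1 rises.

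Of the 9 genes, 3 start close to a protein-coding gene on the other strand: Zfas1 beside Znfx1 (81 bases between the starts), Snhg1 beside Slc3a2 (106 bases) and Gas5 beside Zbtb37 (427 bases). Znfx1, a helicase of the antiviral response, and Zfas1 both rose from zygote to E2-cell (Znfx1 by 1.06, adjusted p = 0.0239). Znfx1 then fell from 36.9 ± 1.1 FPKM at E2-cell to 9.63 ± 1.1 at L2-cell (-1.89, SE 0.33, adjusted p = 0.000385). It fell again at 4-cell (-0.96, adjusted p = 0.0296) and was at 1.29 FPKM in morulae, where Zfas1 was highest. From morula to blastocyst, where Zfas1 was called lower, Znfx1 rose (0.94, adjusted p = 0.0450) to 2.93 FPKM. The libraries are stranded per the labels, and 82 exon bases of the pair overlap on opposite strands. Slc3a2, a subunit of amino acid transporters, rose with Snhg1 at 4-cell (1.62, adjusted p = 0.000229) but had 16.8 ± 1.6 FPKM in MII oocytes, where Snhg1 had 1.98 ± 0.38. It fell from morula to blastocyst (-1.08, adjusted p = 0.00486), where Snhg1 changed by -0.10 (adjusted p = 0.723). Zbtb37, a zinc finger gene, had stage means between 1.22 and 3.39 FPKM, while Gas5 went from 1.58 to 40.2.

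**Figure D3:**
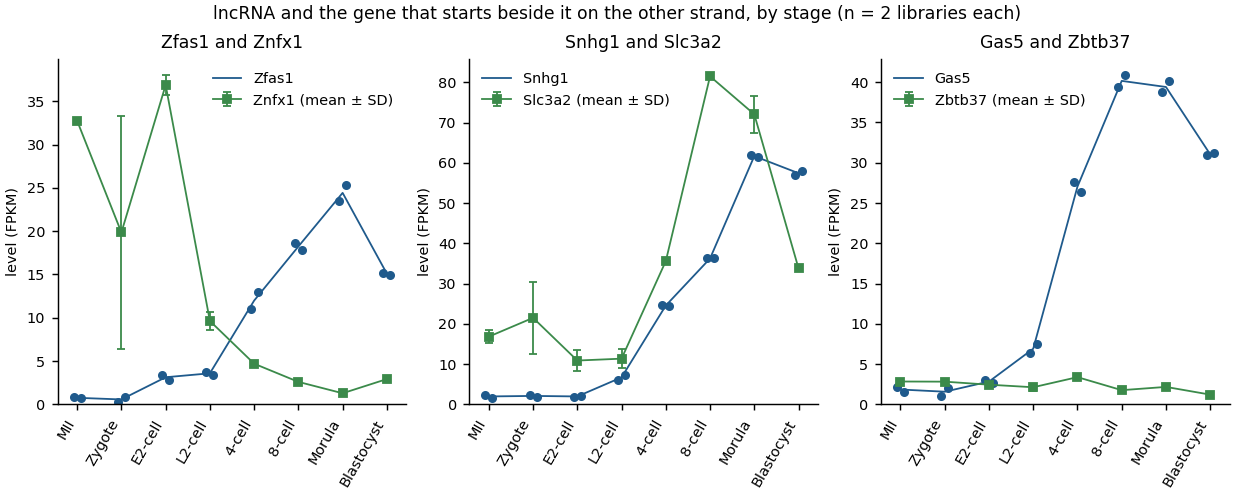
Level in FPKM (vertical axes, linear) at 8 stages (horizontal axes) of 3 lncRNAs (blue, 1 point per library, line through the mean) and of the protein-coding gene that starts beside each on the other strand (green squares, mean with SD as bars, 2 libraries). Znfx1 falls from E2-cell to 4-cell and is higher in blastocysts than in morulae, where Zfas1 is highest, Slc3a2 starts higher than Snhg1 in oocytes and rises with it at 4-cell, and Zbtb37 stays under 3.39 FPKM in mean.

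Other genes of the pathway were counted from lists, to be read beside the shares of all rows called higher and lower: 17.9% and 26.2% at E2-cell, 31.1% and 37.6% at L2-cell, 30.2% and 26.2% at 4-cell. Of 10 other noncoding snoRNA hosts tested, 3 rose and 0 fell at E2-cell, 6 rose at L2-cell, and 4 rose and 2 fell at 4-cell. Among them 2410006H16Rik had the highest mean and went from 9.06 FPKM at L2-cell to 57.6 at 4-cell in stage means. The 28 protein-coding snoRNA hosts, many of them genes of ribosomal proteins and translation factors, mostly fell at E2-cell: 2 rose and 18 fell, with a median of -0.94 beside 1.31 for the 9 lncRNAs and 0.08 for the 10 other noncoding hosts. Rpl4, for example, went from 130 FPKM in zygotes to 37.6 at E2-cell. At L2-cell 23 of the 28 rose and 1 fell, and at 4-cell 26 rose and 0 fell. Of 19 genes for snoRNP proteins and their assembly, 3 rose and 8 fell at E2-cell, and 16 rose at L2-cell with a median of 2.04. Nolc1, which carries snoRNPs in the nucleolus, went from 15.8 to 67.5 FPKM between those 2 stages. Of 15 genes of nonsense-mediated decay, 3 rose and 2 fell at E2-cell, 8 rose and 2 fell at L2-cell, and 11 rose at 4-cell. The difference between the lists was not tested.

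Within the 1-cell period only the 2 steps between neighbouring times were tested, not 14 against 20 hours. From 14 to 17 hours limma called 0 of the 6 lncRNAs that passed the filter (2 at an unadjusted p under 0.05), against 20.5% of 12834 rows higher and 16.5% lower, and from 17 to 20 hours again 0 of 6 (3 unadjusted), against 5.13% and 14.5%. Snhg3, Snhg12 and Snhg15 stayed under 1 FPKM in these libraries and were not tested. Gas5 had 1.66 and 1.78 FPKM at 14 hours, 1.99 and 2.08 at 17 hours and 2.42 and 2.51 at 20 hours, without overlap between times. Its changes were 0.19 (SE 0.083, adjusted p = 0.119) and 0.23 (adjusted p = 0.109). Snhg5 went from 1.25 and 1.99 over 1.83 and 2.13 to 2.88 and 2.79 FPKM. The first and second changes were 0.27 and 0.25 for Snhg1, 0.48 and 0.25 for Snhg8 and 0.35 and 0.13 for Zfas1. In means, Snhg8 went from 0.576 FPKM at 14 hours to 1.32 at 20 hours. Snhg6 alone of the 6 had changes of opposite sign, 0.19 and -0.18 (adjusted p = 0.0935 and 0.140). After scaling by the median of ratios, 41.0% of all calls from 14 to 17 hours were higher, against 55.3% without it, and 37.5% against 26.1% from 17 to 20 hours.

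In the LncR-3363 knockdown 2 of the 6 tested lncRNAs fell and 0 rose, against 13.9% of 11492 rows called lower and 29.8% higher. No row carries the name LncR-3363 and MT2Mm is a repeat without a row, so the targets could not be used to check the labels. That the columns named for this experiment belong to it rests on the structure of the series. Snhg1 had 1.81, 2.11, 1.63 and 1.51 FPKM in the 4 control libraries and 1.37, 1.30, 1.13 and 1.12 after knockdown, without overlap, a change of -0.38 (SE 0.13, adjusted p = 0.0391). Snhg3 had 2.21, 0.980, 1.34 and 1.92 FPKM in controls and 0.891, 1.31, 0 and 0.150 after knockdown, with overlap, a change of -1.11 (SE 0.40, adjusted p = 0.0495). Each call was lost in 6 of the 8 fits that left 1 library out, with adjusted p up to 0.108 for Snhg1 and 0.121 for Snhg3. Snhg12 had 1.03 to 1.17 FPKM in controls and 0.530 to 1.03 after knockdown (-0.45, adjusted p = 0.0524). Snhg3 and Snhg12 passed the filter only with the control libraries counted, which favours a fall. Their values, the count of 2 and the median of the 6 are therefore a description. Gas5 (-0.08), Snhg5 (-0.19) and Snhg8 (-0.17) were not called. Zfas1 did not pass the filter, with 0.781 to 1.42 FPKM in controls and 0.397 to 0.671 after knockdown. Snhg6 (0.419 ± 0.25 and 0.587 ± 0.091 FPKM, SD, n = 4) and Snhg15 (0.565 ± 0.42 and 0.325 ± 0.19) did not pass it either, and their libraries overlapped. Snora73b, the intronic snoRNA of Snhg3, was called lower (-1.13, SE 0.25, adjusted p = 0.00527). It was the only call among 9 snoRNA rows tested in the knockdown, whose median was -0.06. The median of the 6 was -0.29 beside 0.12 over all rows, a difference of -0.41, or -0.40 after scaling, which shifted the median of all rows by -0.12 and took the share of higher calls from 68.2% to 50.4%. The 5 oocyte markers summed to 516 to 580 FPKM in controls and 648 to 851 after knockdown, and the part of this difference in the results was not tested.

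In the MT2Mm experiment most of the lncRNAs were higher at Early2c than at Late1c in the controls. Of 8 tested, 7 rose and Snhg6 fell, against 33.5% of 13180 rows higher and 45.7% lower, with a median of 1.35 beside -0.15 over all rows. Scaling shifted the median of all rows by 0.17 and kept the count at 8. Only Gas5, Snhg3 and Snhg5 reached 1 FPKM in a control library of both stages: Snhg1, Snhg8, Snhg12 and Zfas1 did so at Early2c alone and Snhg6 at Late1c alone. For those 5 the filter favours the direction counted, so the count and the median are a description. Snhg1 rose here (1.37, adjusted p = 8.13e-07) from 0.756 to 0.952 FPKM at Late1c to 2.38 to 3.58 at Early2c, whereas from zygote to E2-cell it was not called. Snhg12 had the largest rise, from 0.163 ± 0.16 to 1.72 ± 0.16 FPKM (SD, n = 3; 1.77 on the log2 scale, adjusted p = 5.98e-07), and Gas5 went from 1.37 ± 0.14 to 3.35 ± 0.13 (1.05, adjusted p = 1.19e-06). In the knockout embryos 5 rose and 1 fell over the same interval, against 33.9% and 36.6% of rows. Of those called, only Gas5 reached 1 FPKM in a knockout library of both stages. Snhg1, Snhg3, Snhg5 and Snhg12 did so at Early2c alone and Snhg6 at Late1c alone, so this count is a description too. The changes of Snhg8 (0.31, adjusted p = 0.177) and Zfas1 (0.53, adjusted p = 0.0827, or 0.0136 in a fit of those groups alone) were not called in the knockout. The fall of Snhg6 (-0.44, adjusted p = 0.0471) was lost in 5 of 6 fits without 1 library (adjusted p up to 0.200). Snhg15 did not pass the filter. It had 0.229 to 0.423 FPKM in Late1c and 0.738 to 1.61 in Early2c controls, and 0.142 to 0.322 and 0.762 to 0.984 in the knockout.

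At Late1c limma called 0 of the 8 between knockout and control (2 at an unadjusted p under 0.05), and only 0.0455% of all rows were called higher and 0.0683% lower. Snhg3 had 1.02, 0.267 and 0.984 FPKM in controls and 0.260, 0.0231 and 0.162 in the knockout, and Snhg5 1.30, 0.983 and 1.33 against 0.881, 0.958 and 0.626, without overlap in either (adjusted p = 0.577 and 0.498). The changes of the other 6 lay between -0.14 (Snhg1) and 0.10 (Snhg12), with Gas5 at -0.07 and Zfas1 at -0.12, and Snhg6 and Snhg8 nearer to 0. At Early2c 5 of the 8 were lower in the knockout and 0 higher, against 15.6% and 33.4% of rows. Zfas1 had 2.21, 1.96 and 4.74 FPKM in controls and 1.09, 1.20 and 1.02 in the knockout, a change of -1.03 (SE 0.26, adjusted p = 0.00587). Snhg8 had 2.12, 1.67 and 2.09 FPKM in controls and 1.33, 0.824 and 0.688 in the knockout, a change of -0.78 (SE 0.20, adjusted p = 0.00596). Snhg8 passed the filter only with the Early2c controls counted, which favours a fall. Its call, and its part in the count of 5, are therefore a description. Neither gene overlapped between groups, and both calls held whichever library was left out (adjusted p up to 0.0216 and 0.0284).

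Snhg1 (3.07 ± 0.62 to 2.22 ± 0.14 FPKM), Snhg5 (4.13 ± 0.51 to 2.93 ± 0.46) and Snhg12 (1.72 ± 0.16 to 1.17 ± 0.13) also fell, with log2 changes of -0.38, -0.44 and -0.41 and adjusted p of 0.0267, 0.0218 and 0.0498. Their libraries did not overlap, but the calls were lost in 4, 3 and 6 of 6 fits without 1 library, with adjusted p up to 0.104, 0.0928 and 0.132. That of Snhg1 was also lost in a fit of those groups alone (adjusted p = 0.0611). Gas5 was 3.35 ± 0.13 FPKM in controls and 3.12 ± 0.37 in the knockout, with overlap (-0.09, adjusted p = 0.464), and Snhg6 was 0.542 ± 0.24 and 0.730 ± 0.26 (0.24, adjusted p = 0.300). The median of the 8 was -0.42 beside 0.11 over all rows, a difference of -0.54, or -0.53 after scaling, which shifted the median of all rows by -0.13 and took the share of higher calls from 68.2% to 48.2%. The number of members called stayed at 5 under that scaling. Of 16 rows of snoRNAs inside the members that were tested at Early2c, 0 were called. Their median was 0.11, and 33.4% of all rows were called higher and 15.6% lower. The 5 markers of the 2-cell stage summed to 231 to 242 FPKM in Early2c controls and 177 to 195 in the knockout, and the 5 oocyte markers to 497 to 556 and 532 to 607. The part of these markers in the falls was not tested.

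**Figure D4:**
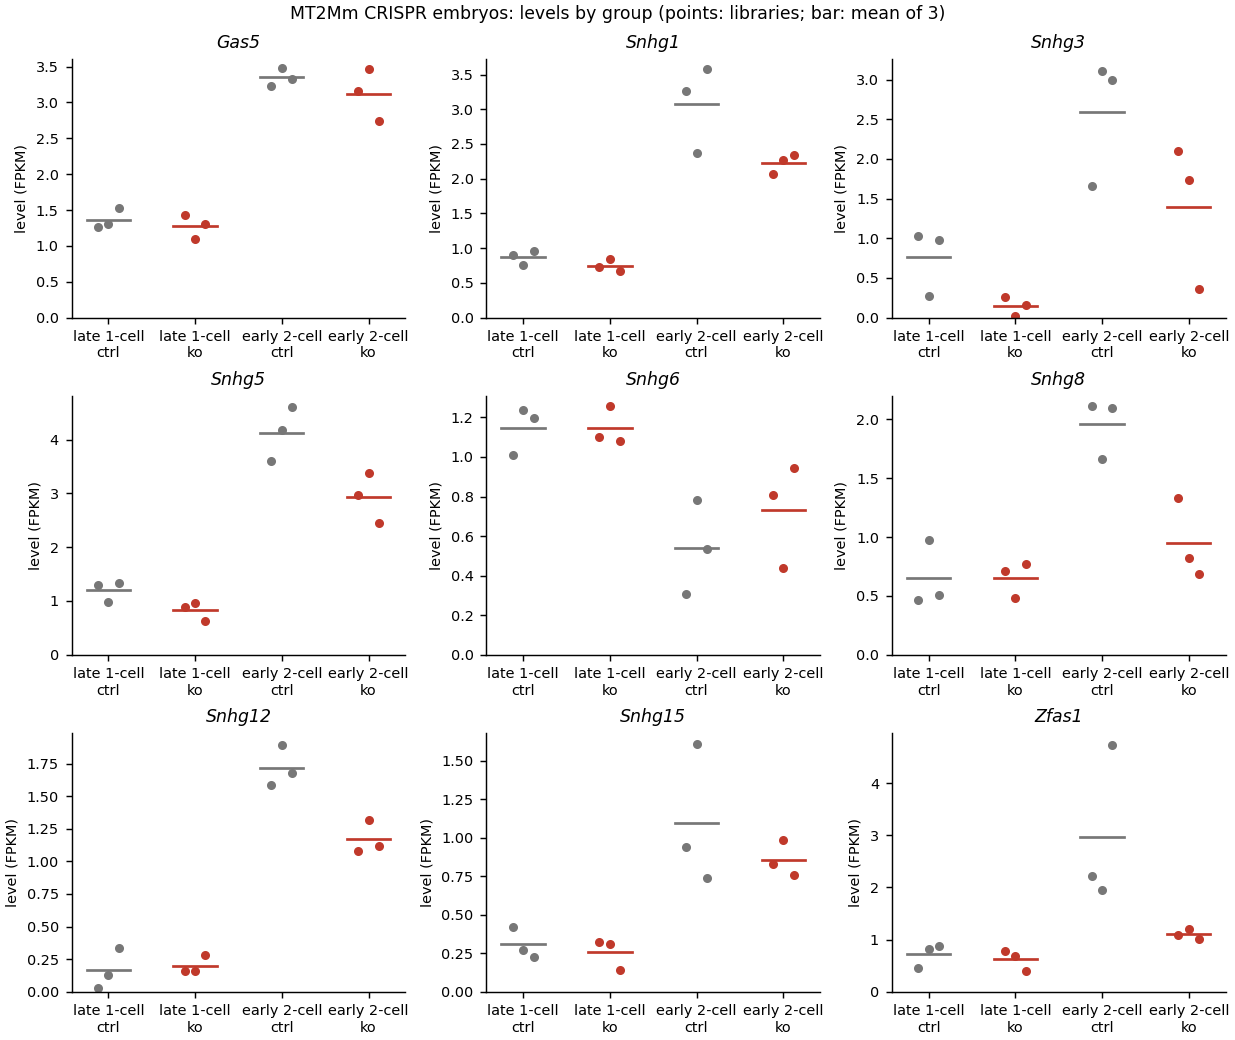
Level in FPKM (vertical axes, linear, separate scales) of the 9 lncRNAs in the 4 groups of the MT2Mm experiment (horizontal axes; grey, control; red, knockout), with 1 point per library and a bar at the mean of 3. At early 2-cell the red points of Snhg1, Snhg5, Snhg8, Snhg12 and Zfas1 lie below all grey points, and those of Gas5 overlap them.

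The difference between the knockout effects at Early2c and Late1c was tested as an interaction, on the same libraries. Of 8 lncRNAs 1, Snhg8, was called, with a difference of -0.81 (SE 0.28, adjusted p = 0.0381), against 11.6% of rows lower and 25.7% higher. The call was lost in 8 of 12 fits without 1 library (adjusted p up to 0.0913). Since Snhg8 passed the filter only with the Early2c controls counted, the filter favours this sign. For Zfas1 the difference was -0.91 (adjusted p = 0.0683) and for Snhg12 -0.51 (adjusted p = 0.0963), and both passed after scaling (adjusted p = 0.0408 and 0.0412), which shifted the median of all rows by -0.14 and the share of higher calls from 68.8% to 47.5%. The protein-coding snoRNA hosts stood the other way at Early2c: 17 of 28 were higher in the knockout and 0 lower, with a median of 0.34, while of 4 other noncoding hosts tested 2 were lower and 0 higher. Of 18 snoRNP genes 8 were higher and 0 lower, and of 15 genes of nonsense-mediated decay 6 were higher and 3 lower, beside 33.4% and 15.6% of all rows. The median of the decay genes was 0.12 beside 0.11 over all rows. In the knockdown, 13 of the 28 coding hosts were higher and 3 lower, and 9 of 17 snoRNP genes were higher and 1 lower, beside 29.8% and 13.9% of all rows.

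**Figure D5:**
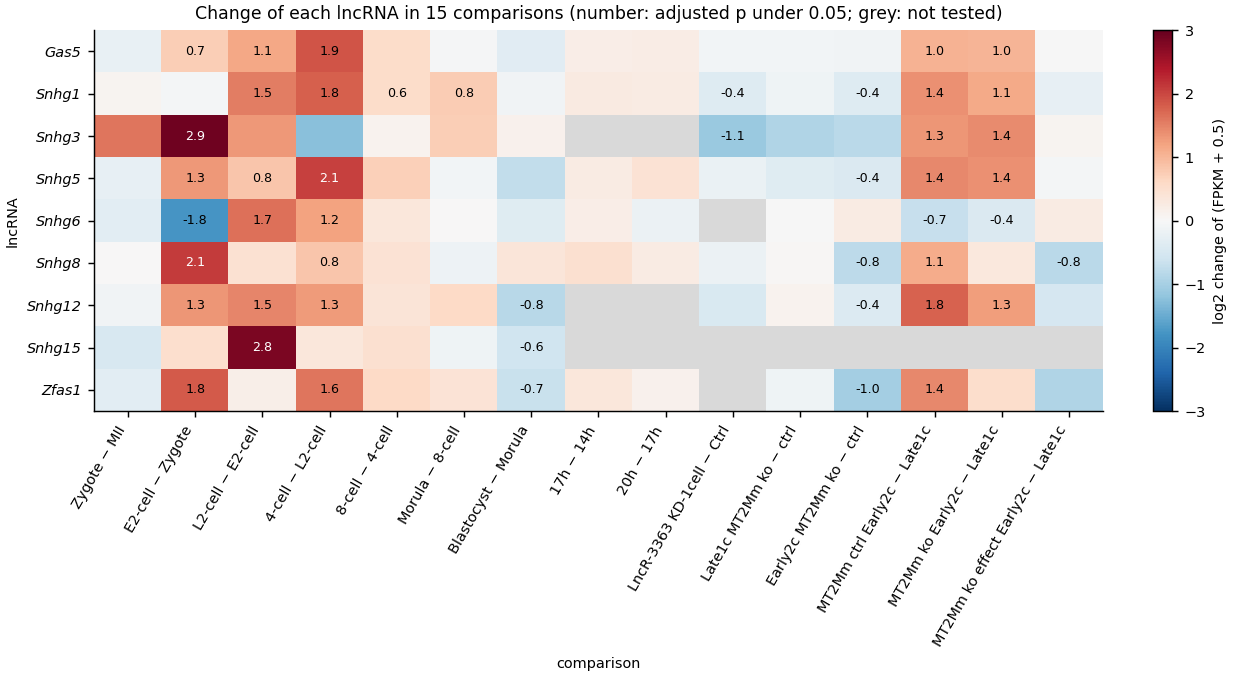
Log2 change of (FPKM + 0.5) (colour scale) of the 9 lncRNAs (vertical axis) in 15 comparisons (horizontal axis), each written as the later or treated group minus the other. A printed number marks an adjusted p under 0.05 and grey a gene that was not tested. Most cells from zygote to 4-cell and from Late1c to Early2c are red. Among the exceptions, Snhg6 is blue from zygote to E2-cell and from Late1c to Early2c. Snhg3 is blue from L2-cell to 4-cell, without a call.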

How the data were processed

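Per the labels' protocols, total RNA was made into stranded libraries with the TruSeq Stranded Total RNA kit for the developmental stages and the SMARTer Stranded Total RNA kit, version 2, for small amounts, whose samples are not named. Per the submitters' processing notes, the tools were HISAT2 2.1.0 and Cuffdiff 2.2.1 beside StringTie 1.3.4d, Cufflinks and cutadapt 1.18, on GRCm38. Their roles and order are not stated. The authors deposited FPKM values, while denominator, filters and depth are not stated in the sources at hand. The 43 columns were matched to groups by name. Names of the MII to L2-cell columns end in a tag, which differs between the zygote columns and between the MII columns. The E2-cell columns share a tag, and the L2-cell columns share another. Names of the columns from 4-cell to blastocyst end in the word merge. What the tag and the word stand for is not stated. The 4-cell columns give the group but not which sample.

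Rows were annotated from GENCODE M21 (54409 of 54446 Ensembl identifiers found). For each fit, a row needed at least 1 FPKM in a number of columns equal to the smallest group, and log2(FPKM + 0.5) went into limma 3.58.1 (R 4.3.3; lmFit, eBayes with a trend). Separate fits held the 8 stages, the 3 times, the 4 groups of the MT2Mm experiment, and Ctrl with KD-1cell. The lone KD-2cell library was not tested. P-values were adjusted by Benjamini-Hochberg over all rows of a comparison, 15 comparisons in all. The fit was tested on simulated data for 4 of the 15, with a log2 change of 1 planted in 200 rows. Only rows with a mean log2(FPKM + 0.5) above 1 could be drawn, so the shares recovered do not cover lower rows. Recovered were 50% from zygote to E2-cell and 99.5% from 17 to 20 hours. In the knockdown it was 91.5%, and in the Early2c knockout 98%. False calls were 1.96%, 2.93%, 4.19% and 7.55% of the calls, in the same order.

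The 9 members and the lists were chosen with earlier results of these data known. The rule for named genes took all 9 members (those without a call are partly given as ranges or counts), at most 4 genes per other list by mean level, every neighbour starting within 1000 bases on the other strand, and the 5 rows most like the members' mean profile. The snoRNAs named, the sequences printed and the motifs were chosen after their values were seen. As alternatives, the pseudocount was 0.1 or 1 FPKM, the filter was dropped, columns were scaled to the median of ratios, replicate number was a block, each library was left out, only the contrasted groups entered, KD-2cell joined as a group, or only replicates whose column names share a tag were kept. Python 3.11.15 with pandas 2.3.3, NumPy 2.4.6 and Matplotlib 3.10.9 did the rest.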

Additional observations from a re-analysis of the deposited data

Results flagged for a closer look

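The effect of the MT2Mm knockout on Snhg8 differed between Early2c and Late1c by -0.81 on the log2 scale (adjusted p = 0.0381, limma interaction term): it was 0.02 at Late1c and -0.78 at Early2c. Snhg8 passed the filter only with the Early2c controls counted, which favours this sign. The single KD-2cell library, which entered no comparison, had 2.33 FPKM of Gas5, above the highest of the 4 control libraries (2.29). It lay further below the lowest control for Snhg1 (0.643 against 1.51 FPKM) and Snhg12 (0.754 against 1.03). The other lncRNAs were within the range of the controls. In the 18 groups of 4 libraries looked at for an outlying sample (9 lncRNAs in KD-1cell and Ctrl), none was found by Dixon's ratio.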

How the results depend on the processing

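Of 1354 values of the 9 lncRNAs under alternatives, 1207 kept their call, 103 lost it and 44 gained one. In 54 the sign changed, none of them called before or after. Of 47 calls 33 held when each library was left out in turn. From 4-cell to 8-cell (1 called) the members called were 4 with a pseudocount of 1 FPKM, 4 with scaling, 7 in the fit of the groups alone and 0 without any 1 library. From morula to blastocyst (3 called) they were 0 with a pseudocount of 0.1 FPKM, 0 with no filter, 5 with scaling, 1 with the replicate block, 6 in the groups alone and 0 without any 1 library. In the groups alone 1 was called from zygote to E2-cell (7 in the shared fit), 3 from 8-cell to morula (1), 1 from 14 to 17 hours (0) and 1 from 17 to 20 hours (0). From MII to zygote the count was 1 with replicates of a shared tag and 0 to 3 without 1 library, and from 14 to 17 hours 0 to 1 without 1 library. In the knockdown (2 called) it was 1 with a pseudocount of 0.1, 0 with no filter, 0 with the replicate block and 0 to 3 without 1 library. For the Early2c knockout (5 called) it was 2 with no filter and 2 to 3 without 1 library. For the difference of knockout effects (1 called) it was 0 with a pseudocount of 0.1, 0 with no filter, 3 with scaling, 0 with the replicate block and 0 to 2 without 1 library. The cause of these moves was not tested, apart from the smaller number of samples in the fits without a library.

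Over all rows, counts past 1.5 times the main count or under it arose from MII to zygote (740 called: 449 with a pseudocount of 0.1, 273 with the block, 0 in the groups alone, 386 to 5078 without 1 library), at E2-cell (8685: 3532 in the groups alone), at 8-cell (6885: as low as 4419 without 1 library), in morulae (4111: as low as 2472), from 14 to 17 hours (4752: 2898 with no filter, as low as 2580 without 1 library), from 17 to 20 hours (2521: as low as 960) and in the Late1c knockout (15: 44 with a pseudocount of 0.1, 0 with a pseudocount of 1, 2 with no filter, 0 with scaling or the block, 1 in the groups alone, 0 to 4 without 1 library).

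Replicate numbers do not pair the samples: residuals of equally numbered libraries correlated at -0.0922 to 0.0930. Contrasts with the 4-cell stage have no blocked fit, since their columns carry no matching numbers. The read depth is unknown, so no counting error can be given for low values.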
